A study of Mus musculus with 12 samples.

Results

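The cultures described here were 3 independent glioblastoma cell cultures of the group labelled mGC1_GFAP, set against 3 neural stem cell (NSC) cultures. They account for 6 of the 12 arrays of the series and were chosen by their labels alone. Each mGC1_GFAP culture came from a tumour raised in an adult G/tv-a Arf-/- mouse by injection of DF-1 cells, a chicken fibroblast line, that produced the avian retroviral vector RCAS-PDGFB-HA. The NSC cultures were grown from the subventricular zone of adult brain, 1 from each of the C/tv-a, N/tv-a and G/tv-a Arf-/- lines. The other 6 arrays were 3 mGC2_NES cultures from N/tv-a Arf-/- mice and 3 mGC3_CNP cultures from C/tv-a Arf-/- mice, made with the same vector. All 4 groups carried the Arf deletion, received no treatment, and grew adherently in the same stem cell medium. The question addressed was how tumour cells that began in Gfap-expressing cells differ from stem cells, and where their change from stem cells went further, less far or the other way than in the other tumour groups. All 3 mGC1_GFAP cultures came from the G/tv-a line and each other tumour group from its own line, so the cell of origin and the mouse line cannot be told apart. Only 1 NSC culture came from the G/tv-a line.

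In the RCAS/tv-a system a tissue-specific promoter drives tv-a, the avian virus receptor, so only cells using that promoter can be infected. The Gfap promoter is active in astrocytes and in the stem cells of the adult subventricular zone. PDGFB, the ligand carried by the vector, activates the PDGF receptor alpha that oligodendrocyte precursors depend on, and Arf, a product of the Cdkn2a locus, restrains proliferation in response to oncogenes.

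The table held log2 values of 28270 probe sets, of which 21780 named exactly 1 gene symbol (19934 symbols) and were tested. The median log2 value of the arrays lay between 7.60 and 7.66. Prm2, Odf1, Tnp2 and Tnp1, genes of developing sperm, read between 5.6 and 7.42 on all 12 arrays, and a difference whose lower mean was at or below 7.42 is called a lower bound here. Nes, which encodes the stem cell filament nestin, read 12.38, 12.18 and 12.15 in the C/tv-a, N/tv-a and G/tv-a NSC cultures. Of 14 microglia and macrophage markers, 11 were at or below 7.42 on every array, as were 7 of 10 endothelial and 7 of 10 pericyte and fibroblast markers. The G/tv-a NSC array read both Xist (11.86) and the Y-linked genes (mean 8.39). Each mGC1_GFAP array read high for either Xist (12.6 in replicate 3) or the Y-linked genes (8.75 and 8.57 in replicates 1 and 2). Xist was also high in all 3 mGC3_CNP arrays (12.52, 12.61 and 11.91), the C/tv-a NSC array (12.28) and mGC2_NES replicate 2 (9.27). The Y-linked genes were high in the N/tv-a NSC array (9.28) and mGC2_NES replicates 1 and 3 (9.17 and 9.08). Sex was thus uneven between the groups, and its part in the differences was not tested. For several genes whose change from NSC rested on the G/tv-a NSC array, values without it or against it alone are given beside the gene.

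The genes that rose furthest in mGC1_GFAP from NSC included receptors and surface proteins of the oligodendrocyte lineage, and those that fell furthest included proteins of astrocytes and stem cells. With limma and Benjamini-Hochberg adjustment over all 21780 probe sets, 3036 were higher (13.9% of those tested) and 3339 lower (15.3%) at an adjusted p under 0.05. Of these, 817 rises (3.75%) and 761 falls (3.49%) were at least 2-fold, and the mGC1_GFAP and NSC arrays did not overlap in 43.3% of probe sets. Erbb3, a neuregulin receptor, read 11.92, 12.07 and 12.19 in the 3 tumour cultures and 6.44, 6.55 and 6.71 in the stem cells. Its difference was 5.49 ± 0.11 (SE; limma, adjusted p = 5.78e-11) on the log2 scale. Sema3d, a secreted semaphorin, followed at 5.37, Capn6, a calpain without protease activity, at 5.3, and Gria4, an AMPA receptor subunit, at 5.04. Acan (aggrecan) rose by 4.72, Foxf1, a forkhead factor, by 4.7, Fry by 4.68 and Atp10b, a lipid flippase, by 4.54. The 3 mGC1_GFAP arrays are separate cultures, and the 3 NSC arrays 1 culture of each mouse line. All 8 genes had NSC means at or below 7.42, so these rises are lower bounds. All 8 also rose in mGC2_NES and mGC3_CNP, Erbb3 by 6.03 and 5.91.

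Among the falls, Fndc3c1 read 12.23, 11.78 and 12.23 in the stem cells and 5.1, 5.28 and 5.11 in the tumour cultures, a fall by 6.92. Egfr, the EGF receptor on which cultured stem cells grow, fell by 5.43 from 11.84, 11.4 and 12.06 to 6.35, 6.3 and 6.35. Aldh1l1, a folate enzyme that marks astrocytes, fell by 5.67, and Gja1, which encodes connexin 43, by 5.33. Ifitm3, an interferon-induced membrane protein, fell by 6.68, the laminin-binding integrin Itga6 by 5.82, Crip2 by 5.7 and the annexin Anxa5 by 5.63. In each of these 8 genes the 3 tumour arrays lay at or below 7.42 and far from the NSC arrays, so the falls are also lower bounds. All 8 were also lower than NSC in mGC2_NES and mGC3_CNP, Egfr by similar differences (-5.4 and -5.45).

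Gfap, whose promoter directed infection, was within the readings of the spermatid genes in the tumour cultures. It read 6.49, 6.49 and 6.5 in mGC1_GFAP, against 8.43, 7.71 and 7.55 in the C/tv-a, N/tv-a and G/tv-a stem cells, a fall by 1.4 (adjusted p = 0.000291) that is a lower bound. Gfap was similarly low in mGC2_NES (-1.32 from NSC) and mGC3_CNP (-1.34), and mGC1_GFAP did not differ from them by limma (-0.07, adjusted p = 0.821). Nes fell by 1.6 and Cnp, a myelin enzyme, rose by 0.75, although the rise of Cnp did not pass against the G/tv-a NSC culture alone (0.63, limma, adjusted p = 0.183). Pdgfra, the receptor of the vector's ligand, rose by 3.78 to 13.41, 13.36 and 13.33. Pdgfb rose by 0.9, and whether its probe set reads the vector's transcript was not tested. Cdkn2a differed by 0.46 without passing (adjusted p = 0.135), and its neighbour Cdkn2b, an inhibitor of cyclin D kinases, fell by 1.13 (adjusted p = 0.0266), a call lost without mGC1_GFAP replicate 2 or 3 or the C/tv-a or N/tv-a NSC culture (adjusted p between 0.0561 and 0.0988) and against the G/tv-a culture alone (-0.89, adjusted p = 0.303).

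**Figure D1:**
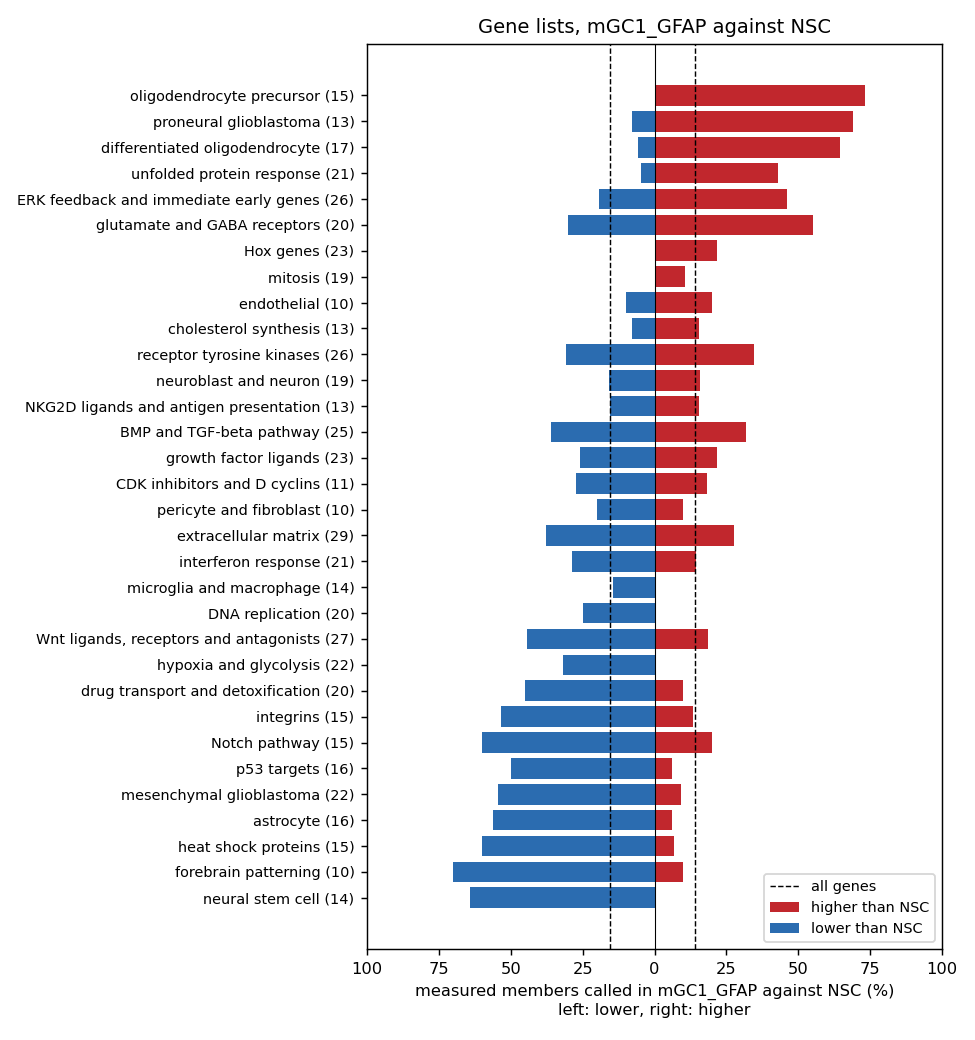
Share of the measured members of each gene list that were higher (right, red) or lower (left, blue) in mGC1_GFAP than in NSC, in percent, with the number measured in brackets and dashed lines for all 19934 genes. Oligodendrocyte precursor genes reached the highest share of rises (11 of 15), and forebrain patterning genes the highest share of falls (7 of 10).

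The lineage lists moved in groups, and in these bulk RNA samples a change in the share of cells of a type and a change in RNA per cell cannot be told apart. Of 15 oligodendrocyte precursor genes, 11 rose and the other 4 did not pass (median of all 15, 2.53), and among all genes 2814 of 19934 rose and 3124 fell, with a median of 0.01. The same list had 11 rises and 1 fall in mGC2_NES (16.6% of all probe sets were higher there) and 12 rises in mGC3_CNP (14.9%). Sox10, a master factor of the lineage, rose by 4.5, and Gpr17, a receptor of committed precursors, by 4.27. Of 17 genes of differentiated oligodendrocytes, 11 rose and 1 fell, beside 9 rises in mGC2_NES and 10 in mGC3_CNP. Enpp6, an early marker of that stage, rose by 3.3, and its adjusted p was 0.06 against the G/tv-a NSC culture alone. Of 16 astrocyte genes 9 fell and 1, S100b, rose by 4.28, and of 14 neural stem cell genes 9 fell. The rises of S100b and Enpp6 are lower bounds. In mGC2_NES 10 of the astrocyte and 11 of the stem cell genes fell (18.2% of all probe sets were lower there), and in mGC3_CNP 10 and 9 (15.5%). Hes1, a Notch effector that keeps stem cells undifferentiated, fell by 2.23. Slc1a3, a glutamate transporter of astrocytes and stem cells, fell by 2.19 (adjusted p = 0.0325), a call lost without mGC1_GFAP replicate 2 or 3 or any of the 3 NSC arrays (adjusted p between 0.0507 and 0.128), and against the G/tv-a culture alone (-2.5, adjusted p = 0.156). Of 10 forebrain patterning genes 7 fell, among them Pax6 (-2.4, a lower bound in size) and Emx2 (-1.8). The same list had 7 falls in mGC2_NES and 7 in mGC3_CNP.

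Receptors and stress genes split by kind. Of all probe sets, 13.9% were higher and 15.3% lower in mGC1_GFAP than in NSC. These shares were 16.6% and 18.2% in mGC2_NES, and 14.9% and 15.5% in mGC3_CNP. Glutamate and GABA receptor genes rose in 11 and fell in 6 of 20, with Gria4 up and the GABA receptor subunit Gabrg1 down by 4.59. In mGC2_NES and in mGC3_CNP 10 of the 20 rose and 6 fell. Integrins fell in 8 of 15, and genes marking mesenchymal glioblastoma fell in 12 of 22, including Cd44 (-3.14), Timp1 (-3.53) and Ctsc (-4.22). In mGC2_NES 6 of the integrins and 12 of the mesenchymal genes fell, and in mGC3_CNP 7 and 11. Heat shock genes fell in 9 of 15 and 1 rose, led by the small chaperones Cryab (-2.96) and Hspb8 (-1.94). Cryab read 8.48, 8.61 and 8.03 in mGC1_GFAP, between 7.44 and 8.21 in mGC2_NES and between 9.69 and 10.01 in mGC3_CNP. It was lower than in mGC3_CNP (-1.46, adjusted p = 0.0256), while its differences from mGC2_NES (0.49, adjusted p = 0.221) and from the mean of both (-0.48, adjusted p = 0.182) did not pass. In the whole list 10 of 15 fell in mGC2_NES (18.2% of all probe sets were lower there) and 8 in mGC3_CNP (15.5%). By contrast, 9 of 21 unfolded protein response genes rose and 1 fell, with Chac1, a glutathione-degrading enzyme induced by that response, at 2.07 and Herpud1, part of ER-associated degradation, at 1.16. In the same list 7 genes rose in mGC2_NES (16.6% of all probe sets were higher there) and 8 in mGC3_CNP (14.9%), and none of its genes passed between mGC1_GFAP and the other tumours (limma), the nearest being Chac1 with 0.75 (adjusted p = 0.0633). Against mGC2_NES alone 4 of the 21 were higher in mGC1_GFAP (3.12% of all probe sets) and 1 lower, among them Xbp1, a transcription factor of that response, at 0.45 (adjusted p = 0.02). Against mGC3_CNP alone 19 of the 21 estimates lay above 0 and 5 had an unadjusted p under 0.05. Detoxification genes fell in 9 of 20, among them the glutathione transferases Gsta4 (-4.81) and Gstm1 (-4.56) and the cystine transporter Slc7a11 (-2.97). In mGC2_NES and in mGC3_CNP 12 of the 20 fell.

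The change from NSC in mGC1_GFAP departed from that of the other tumour groups in a small share of probe sets. Because the NSC mean is common to all 3 changes, the departure was tested among the 9 tumour arrays as mGC1_GFAP minus the mean of mGC2_NES and mGC3_CNP. In this contrast 826 probe sets passed (3.79%, and 18.4% at an unadjusted p under 0.05), 403 higher (1.85%) and 423 lower (1.94%). With median centring of the arrays the split was 535 higher and 374 lower. Against mGC2_NES alone 1336 passed (6.13%), and against mGC3_CNP alone 106 (0.487%). The counts rested on single cultures: the higher count was 63 without mGC1_GFAP replicate 1, 91 without replicate 3, 191 without mGC3_CNP replicate 2, 256 without mGC3_CNP replicate 3 and 234 without either mGC2_NES replicate 2 or 3. The lower count was 64 without mGC1_GFAP replicate 1, 228 without replicate 2, 95 without replicate 3, 195 without mGC3_CNP replicate 2 and 232 without mGC2_NES replicate 3.

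In 708 of the 826 the 3 mGC1_GFAP arrays did not overlap the 6 other tumour arrays (3.25% of all tested, where 9.78% did not overlap whether called or not), and these were sorted by their changes from NSC. The change went further than in both other groups in 207 (0.95%, more), less far in 432 (1.98%, less) and in the opposite direction in 17 (0.0781%, opposite). The less class includes probe sets where mGC1_GFAP lay on the other side of NSC without being called, as in H60b and Olfml3. The remaining 52 (0.239%) could not be sorted. Separation from the other tumour arrays was a condition of sorting, so it is no further result for a sorted gene. Without mGC1_GFAP replicate 1 the counts of more and less were 48 and 51, without replicate 3 they were 58 and 94, and without mGC3_CNP replicate 2 they were 108 and 206. The less count was 276 and 244 without mGC2_NES replicates 2 and 3. Of 57 sorted genes named here, 12 kept an adjusted p under 0.05 (limma) for their difference from the other tumour groups in every alternative run. These alternatives included each tumour array left out in turn and mGC3_CNP alone. The genes were Tgfb2, Lgr5, Fut10, Gpx8, Npl, H60b, Olfml3, Fam135b, Gdpd3, Sfrp1, Chil1 and Grik1. Their changes from NSC were not part of this count, and that of Fut10 in mGC1_GFAP was 0.07 against the G/tv-a NSC culture alone.

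**Figure D2:**
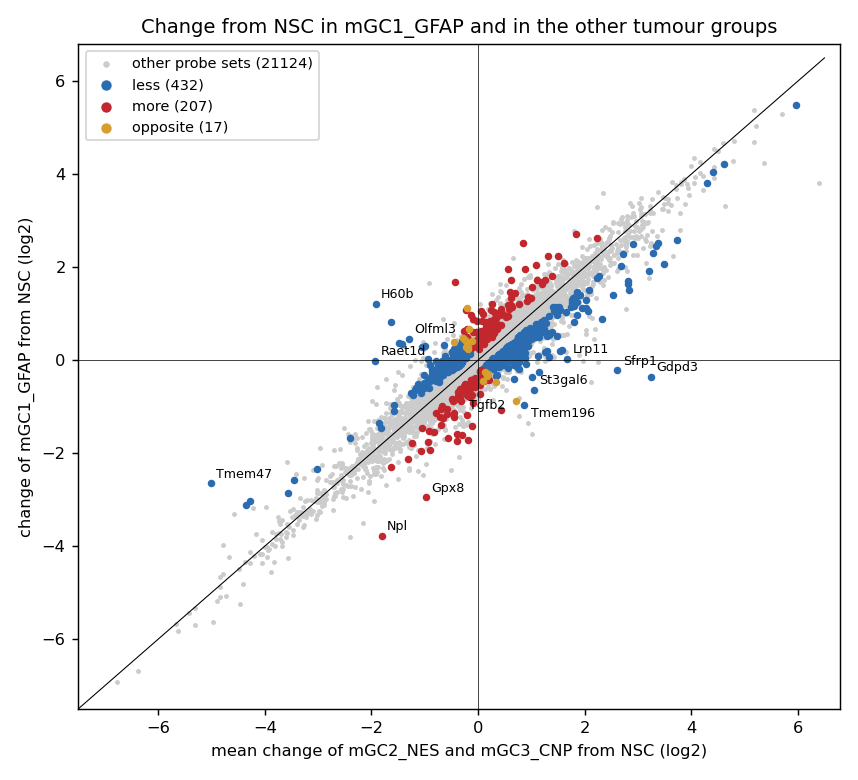
Each point is 1 of 21780 probe sets; the x axis is the mean change of mGC2_NES and mGC3_CNP from NSC and the y axis the change of mGC1_GFAP from NSC, both log2 and sharing the NSC arrays; the line marks equal change. Coloured points are the 432 less, 207 more and 17 opposite probe sets, with H60b, Gdpd3 and Sfrp1 farthest from the line.

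DNA replication genes, which fell in the other tumour groups, stayed closer to the stem cell level in mGC1_GFAP. Of 20 measured genes 5 fell in mGC1_GFAP (15.3% of all probe sets were lower there) and 15 did not pass, with a median of -0.19. In mGC2_NES all 20 fell (18.2% of all probe sets were lower there) with a median of -0.82, and in mGC3_CNP 17 fell (15.5% lower) with a median of -0.41. These 3 comparisons share the NSC arrays. The mean of the list relative to NSC was -0.18, -0.26 and -0.26 in the 3 mGC1_GFAP cultures, -0.69, -0.86 and -0.88 in mGC2_NES and -0.35, -0.57 and -0.43 in mGC3_CNP, so the mGC1_GFAP cultures lay above all 6 others. The 3 NSC cultures lay at -0.05, 0.03 and 0.02.

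Among tumour arrays, 13 of the 20 were higher in mGC1_GFAP than the mean of the other groups (1.85% of all probe sets were). The other 7 did not pass, and the median difference was 0.37. The difference was mainly from mGC2_NES, against which 18 were higher (3.12% of all probe sets, median difference 0.56). Against mGC3_CNP alone limma called 0 (0.275% of all probe sets were higher), although 11 had an unadjusted p under 0.05 (12.9% of all probe sets did, in either direction) and 19 of 20 estimates lay above 0 (median difference 0.23). Without mGC1_GFAP replicate 1 limma also called 0 of the 20, while 18 had an unadjusted p under 0.05 and the median was again 0.37. The count was 5 without mGC1_GFAP replicate 2 or mGC3_CNP replicate 2, 3 without mGC1_GFAP replicate 3, and 6 without mGC2_NES replicate 2, mGC2_NES replicate 3 or mGC3_CNP replicate 3. Without the G/tv-a NSC culture 4 of the 20 fell from NSC, where 2999 of all 21780 probe sets were lower.

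Cdt1 had the widest gap of the sorted replication genes. The gene, whose protein loads the MCM helicase onto origins, read 10.69, 10.6 and 10.5 in mGC1_GFAP, 9.71, 9.87 and 9.5 in mGC2_NES and 10.27, 10.11 and 10.34 in mGC3_CNP, against 10.76, 10.89 and 10.83 in NSC. The mGC1_GFAP arrays lay just below the stem cells and above all other tumour arrays. Its difference from the other tumour groups was 0.63 ± 0.09 (SE; limma, adjusted p = 0.0113), and 0.58 without mGC1_GFAP replicate 1 (adjusted p = 0.0586). Subunits of the helicase itself showed the same order: Mcm5 read 11.54, 11.43 and 11.38 in mGC1_GFAP, between 10.76 and 10.86 in mGC2_NES and between 11.08 and 11.27 in mGC3_CNP. Mcm5 was 0.45 ± 0.06 above the other groups (adjusted p = 0.0112), Mcm6 0.53, Mcm4 0.47 and Mcm7 0.37. Gins1 (0.56) and Gins2 (0.5), of the GINS complex, and Cdc45 (0.27) complete the active helicase. Pola1, the catalytic subunit of polymerase alpha, was 0.51 higher, its primase partner Prim1 0.35, and Tyms, which makes thymidylate, 0.35. Each of these 11 genes lost its call without mGC1_GFAP replicate 1, at adjusted p between 0.0506 (Pola1) and 0.179 (Gins1), with estimates between 0.27 and 0.58. Rrm2, the regulated subunit of ribonucleotide reductase, fell in mGC1_GFAP by 0.93 and was not separated from the other groups (0.36, adjusted p = 0.128).

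**Figure D3:**
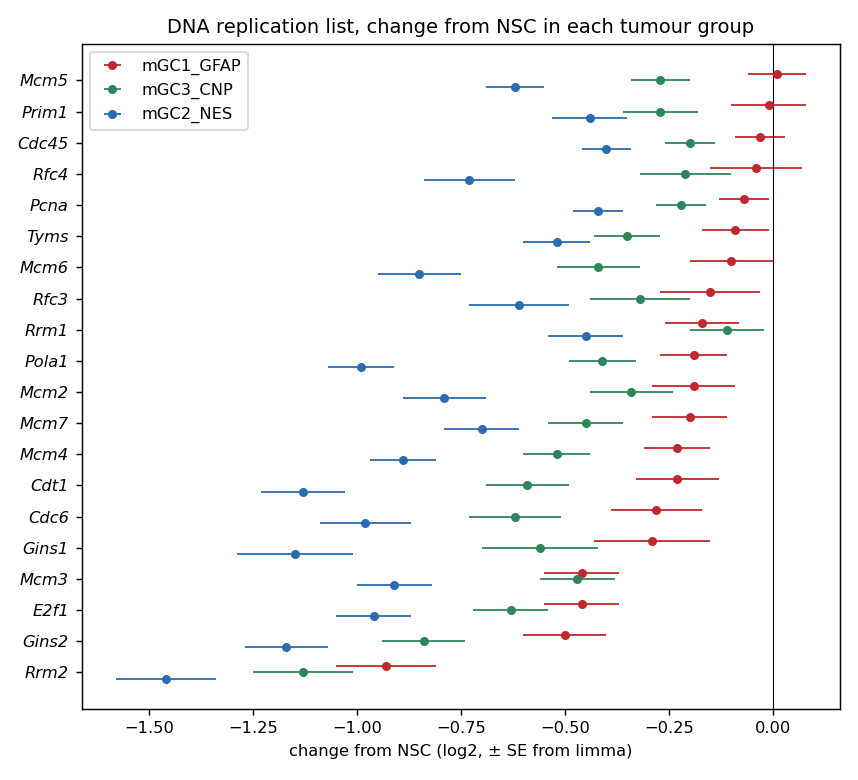
Change from NSC (log2, ± SE from limma, n = 3 arrays a group) of the 20 DNA replication genes in mGC1_GFAP (red), mGC3_CNP (green) and mGC2_NES (blue), ordered by the mGC1_GFAP change. The mGC1_GFAP point lay to the right of mGC2_NES in all 20 genes and of mGC3_CNP in 19, the exception being Rrm1.

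E2F factors drive many replication genes through sites in their promoters, so the promoters of this list were searched for TTTNNCGC, the core of the E2F site, on both strands. RefSeq promoters (GRCm38.p6, 250 bases before to 50 after the start) were matched for 17 of the 20 genes. The letters were present in 9 of the 17 (52.9%), in 6 of the 8 matched genes of the less class (75%), and in 1698 of 32851 promoters of the same length (5.17%). CCAAT, on both strands, was present in 12 of the 17 (70.6%) and in 12289 of the 32851 (37.4%), and overlapped a TTTNNCGC match once, in Mcm7. A match describes the letters only. The promoters of the 4 less-class genes that held a match and differed most from the other tumour groups are shown 5′ to 3′ in the direction of the gene, with the matches in capitals; the first match begins at position 32 from the start in Cdt1, -110 in Mcm6, -138 in Pola1 and -153 in Mcm5.
Cdt1 (chr8:122567765-122568064, + strand): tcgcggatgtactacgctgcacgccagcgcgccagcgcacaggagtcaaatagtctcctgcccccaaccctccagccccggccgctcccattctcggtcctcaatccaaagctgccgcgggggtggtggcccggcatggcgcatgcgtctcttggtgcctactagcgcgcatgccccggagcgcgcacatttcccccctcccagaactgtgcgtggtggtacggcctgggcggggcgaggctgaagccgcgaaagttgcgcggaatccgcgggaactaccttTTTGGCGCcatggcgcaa
Mcm6 (chr1:128359656-128359955, - strand): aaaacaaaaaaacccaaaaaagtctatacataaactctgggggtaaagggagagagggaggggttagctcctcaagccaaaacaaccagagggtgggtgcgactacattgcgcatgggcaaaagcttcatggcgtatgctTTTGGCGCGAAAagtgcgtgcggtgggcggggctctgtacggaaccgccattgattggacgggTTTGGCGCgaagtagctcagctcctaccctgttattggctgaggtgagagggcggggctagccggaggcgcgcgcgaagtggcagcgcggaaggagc
Pola1 (chrX:93632106-93632405, - strand): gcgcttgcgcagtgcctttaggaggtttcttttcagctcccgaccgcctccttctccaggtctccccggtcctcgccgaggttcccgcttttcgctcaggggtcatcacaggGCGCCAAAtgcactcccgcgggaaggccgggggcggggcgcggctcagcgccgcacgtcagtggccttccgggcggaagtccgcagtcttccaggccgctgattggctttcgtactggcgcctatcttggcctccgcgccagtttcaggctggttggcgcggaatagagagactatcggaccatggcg
Mcm5 (chr8:75109259-75109558, + strand): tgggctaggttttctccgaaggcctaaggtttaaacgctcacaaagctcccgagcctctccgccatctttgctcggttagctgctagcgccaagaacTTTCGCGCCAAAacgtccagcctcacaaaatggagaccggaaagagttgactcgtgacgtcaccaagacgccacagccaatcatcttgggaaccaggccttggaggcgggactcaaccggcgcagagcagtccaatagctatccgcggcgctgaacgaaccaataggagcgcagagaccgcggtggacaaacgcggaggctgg

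Of 19 measured mitotic genes, Top2a (0.52) and Nusap1 (0.29) rose in mGC1_GFAP and the other 17 did not pass, beside 13.9% of all probe sets that rose. In mGC2_NES 9 fell (18.2% of all probe sets) and in mGC3_CNP 1 (15.5%). Against mGC2_NES 7 of the 19 were higher in mGC1_GFAP (3.12% of all probe sets). Neither rise passed against the G/tv-a NSC culture alone (adjusted p = 0.102 and 0.207). Birc5, which encodes survivin, read 10.99, 10.74 and 11.07 in mGC1_GFAP and between 10.01 and 10.52 in the 6 other tumour cultures, a difference of 0.58 (adjusted p = 0.0194) that was lost without mGC1_GFAP replicate 1 (0.55, adjusted p = 0.0856) or 3 (0.52, adjusted p = 0.0872).

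Ligands of NKG2D, an activating receptor of natural killer cells, were higher in mGC1_GFAP than in the other tumour groups, while their changes from NSC rested on the G/tv-a stem cells. H60b read 8.94, 8.36 and 9.36 in mGC1_GFAP, 5.23, 6.59 and 6.1 in mGC2_NES and 5.13, 6.24 and 5.26 in mGC3_CNP. In the stem cells it read 6.81 (C/tv-a), 6.96 (N/tv-a) and 9.26 (G/tv-a), so the G/tv-a stem cells alone reached the tumour level. The difference from the other tumour groups, a lower bound, was 3.13 ± 0.35 (SE; limma, adjusted p = 0.00492), and that from NSC, 1.21, did not pass (adjusted p = 0.164). Without the G/tv-a NSC culture it was 2 (adjusted p = 0.00534), and against that culture alone -0.37 (adjusted p = 0.754). H60b fell by 1.7 in mGC2_NES and 2.14 in mGC3_CNP against all NSC cultures. Without the G/tv-a culture the differences were -0.91 (adjusted p = 0.14) and -1.34 (adjusted p = 0.0388), and the C/tv-a and N/tv-a readings were themselves below 7.42. Raet1d read 7.86, 7.28 and 9.25 in mGC1_GFAP and 7.47, 7.56 and 9.37 in NSC, with 9.25 and 9.37 in mGC1_GFAP replicate 3 and the G/tv-a culture. Its falls by 1.64 in mGC2_NES and 2.21 in mGC3_CNP were -1.03 (adjusted p = 0.162) and -1.59 (adjusted p = 0.0389) without the G/tv-a culture. Raet1d lay between 5.3 and 6.92 in the other tumour cultures, a difference from mGC1_GFAP of 1.92 (limma, adjusted p = 0.0399). That difference and the falls of Raet1d in the other tumour groups are lower bounds. The call was lost on leaving out any tumour array but mGC1_GFAP replicate 2, with values between 1.36 and 2.05 and adjusted p between 0.0557 and 0.109. The list held 13 measured genes of 25, and the near-identical Raet1 copies were not among them, so which family member the Raet1d probe set reads is uncertain. In the same list Tapbp, a chaperone of class I antigen loading, fell by 0.63, more than in the other groups (difference -0.43, adjusted p = 0.0298; -0.37 and 0.124 without mGC1_GFAP replicate 3, and lost on leaving out 7 of the 9 arrays in all).

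**Figure D4:**
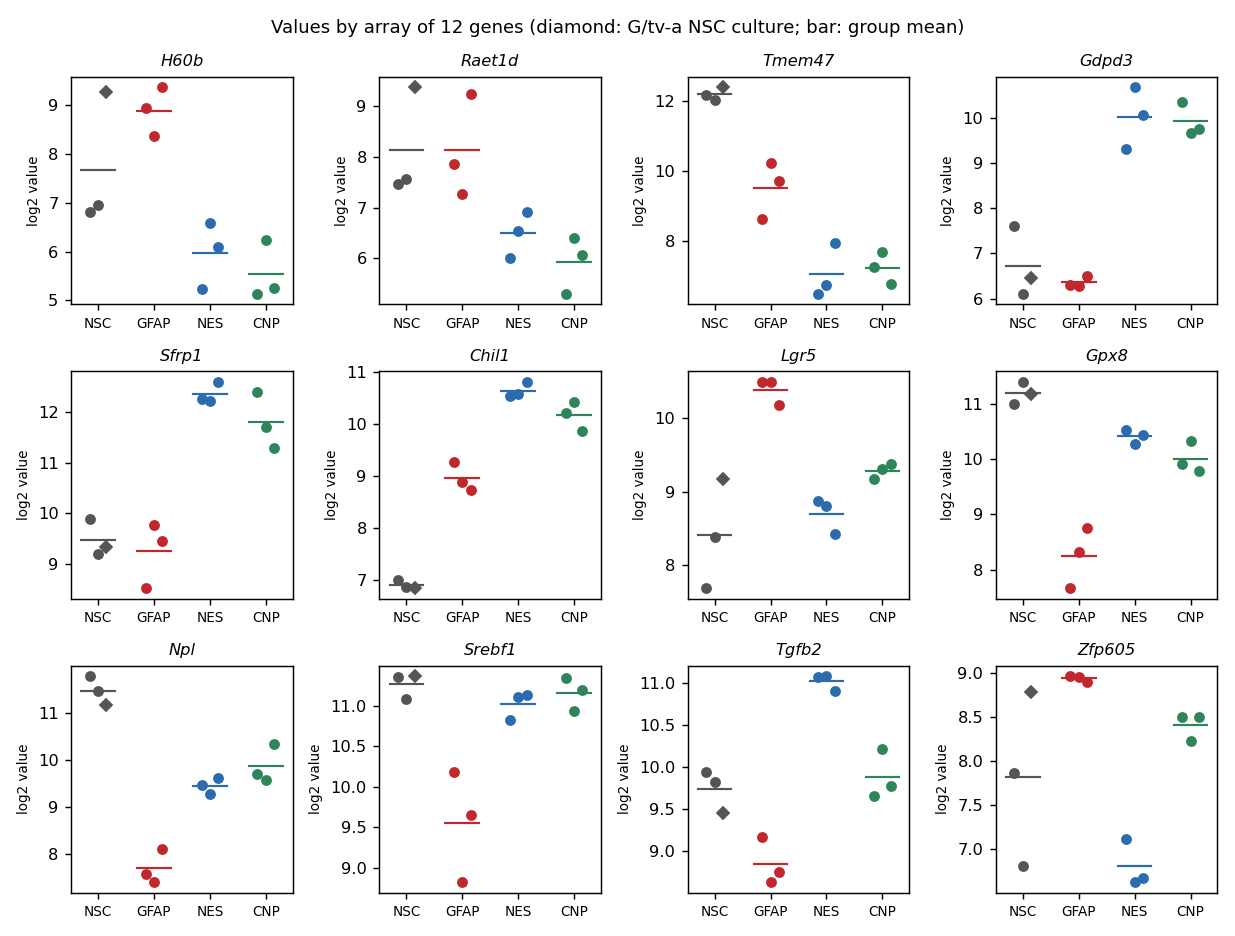
Log2 value of 12 genes on each array, by group (n = 3; bar, group mean; diamond, the G/tv-a NSC culture); each panel has its own axis. In H60b and Zfp605 the G/tv-a culture sits with the mGC1_GFAP arrays; in Gpx8, Npl, Srebf1 and Tgfb2 all 3 mGC1_GFAP arrays lie below every other array.

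Further genes that fell in the other tumour groups fell less, or were not called, in mGC1_GFAP. Tmem47, a membrane protein of cell junctions, fell by 2.65 in mGC1_GFAP, to 8.64, 10.22 and 9.73, but by 5.1 in mGC2_NES and 4.94 in mGC3_CNP, both lower bounds. The difference of 2.37, also a lower bound (limma, adjusted p = 0.0184), was lost without mGC1_GFAP replicate 2 (2.02, adjusted p = 0.0542) or 3 (2.27, adjusted p = 0.0778). Olfml3, a secreted olfactomedin-domain protein, read 9.84, 9.4 and 10.14 in mGC1_GFAP and 9.3, 9.06 and 9.65 in NSC, and fell by 1.2 in mGC2_NES and 1.39 in mGC3_CNP. All 5 probe sets of Fam135b were in the less class, the strongest of them 1.3 above the other tumour groups, a lower bound. That probe set read 8.17, 8.41 and 7.24 in the C/tv-a, N/tv-a and G/tv-a NSC cultures. Against all NSC cultures it changed by -1.1 in mGC2_NES, -0.88 in mGC3_CNP and 0.31 in mGC1_GFAP. Against the G/tv-a culture alone these changes were -0.4, -0.18 and 1.01, so its class depended on the control. The laminin chains Lama1 (0.64) and Lamc1 (0.61) and the drug efflux pump Abcb1b (0.59) were also higher than in the other groups. Without mGC1_GFAP replicate 1 none of these 3 passed (limma, adjusted p = 0.095, 0.0592 and 0.131), and the call of Abcb1b was lost whichever of the 9 arrays was left out.

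A second set of genes rose in the other tumour groups and not, or less, in mGC1_GFAP. Gdpd3, a lysophospholipase D, read 6.31, 6.27 and 6.5 in mGC1_GFAP and 7.6, 6.1 and 6.46 in NSC, readings not distinguished from the spermatid genes apart from the 7.6 of the C/tv-a culture. It read between 9.32 and 10.68 in mGC2_NES and mGC3_CNP, so the difference of -3.61 ± 0.26 (SE; limma, adjusted p = 0.00109) is a lower bound in size. Sfrp1, a secreted Wnt antagonist, read 8.52, 9.76 and 9.46 in mGC1_GFAP and 9.89, 9.19 and 9.34 in NSC, with no overlap with the 11.3 to 12.6 of the other tumour cultures. Its difference from them was -2.83 ± 0.29 (adjusted p = 0.0037). Chil1, a secreted chitinase-like protein used as a mesenchymal marker, rose in mGC1_GFAP by 2.06 to 9.28, 8.89 and 8.74, short of the 9.87 to 10.81 elsewhere (difference -1.43, adjusted p = 0.0037).

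Smaller gaps of this kind touched other signalling genes. The Notch ligand Jag1 rose by 1.03 against 1.72 in mGC2_NES and 1.58 in mGC3_CNP, and Hey2, a Notch effector, by 1.51 against 3.24 and 2.42. The rises of Hey2 are lower bounds. Against the G/tv-a NSC culture alone the change of Hey2 was 0.53 and did not pass (adjusted p = 0.518). Their differences from the other tumour groups were -0.62 (adjusted p = 0.0286) and -1.32 (adjusted p = 0.036), and were lost without mGC1_GFAP replicate 1 (adjusted p = 0.119 and 0.11), replicate 3 (0.0746 and 0.115) or mGC3_CNP replicate 2 (0.0622 and 0.0665), among others. Erbb3, the gene with the largest rise, still read 0.48 below the other groups (adjusted p = 0.0297), and Itga9, an integrin chain, 0.89 below (adjusted p = 0.0269). Both were lost without mGC1_GFAP replicate 1 (-0.41 and -0.67, adjusted p = 0.126 and 0.074), replicate 3, mGC2_NES replicate 3 or mGC3_CNP replicate 2, and Erbb3 also without mGC1_GFAP replicate 2. Insig1, which holds back cholesterol synthesis, differed from NSC by -0.07 and rose by 0.47 in mGC2_NES and 0.34 in mGC3_CNP (difference -0.48, limma, adjusted p = 0.0154, or 0.0691 without mGC1_GFAP replicate 1). Against the G/tv-a NSC culture alone its changes were -0.17, 0.36 and 0.24, and without that culture -0.01, 0.53 and 0.4. Tmem196 (-1.81, a lower bound in size), the sialyltransferase St3gal6 (-1.69) and Lrp11 (-1.64) each lost their call without mGC1_GFAP replicate 1 (limma, adjusted p = 0.0542, 0.0944 and 0.0721). St3gal6 lost it without 7 of the 9 arrays. From NSC, Tmem196 rose in mGC3_CNP (1.06, adjusted p = 0.0419) and did not pass in mGC2_NES (0.65, adjusted p = 0.196). Without the G/tv-a NSC culture its rise in mGC3_CNP did not pass either (0.88, adjusted p = 0.136). St3gal6 rose in mGC2_NES (1.53, adjusted p = 0.00734) and did not pass in mGC3_CNP (0.57, adjusted p = 0.306).

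Genes that rose further in mGC1_GFAP included receptors and adhesion molecules. Lgr5, the R-spondin receptor that amplifies Wnt signals and marks stem cells of several epithelia, read 10.48, 10.49 and 10.17, against 8.43 to 8.87 in mGC2_NES and 9.17 to 9.37 in mGC3_CNP. In NSC it read 7.69 (C/tv-a), 8.39 (N/tv-a) and 9.17 (G/tv-a), the highest of them in the line of the tumours. It rose by 1.96 ± 0.28 (adjusted p = 0.000281), 1.39 ± 0.11 above the other tumour groups (adjusted p = 0.00173). The rise was 2.34 without the G/tv-a culture and 1.21 against it alone (adjusted p = 0.00191). Grik1, a kainate receptor subunit, rose by 2.05, a lower bound, to 7.97, 8.08 and 7.95, and lay 0.97 above the other groups (adjusted p = 0.00854). Fut10, a fucosyltransferase, read 9.65, 9.67 and 9.56 in mGC1_GFAP, between 8.27 and 8.67 in the other tumour cultures, and 8.23, 8.17 and 9.55 in the C/tv-a, N/tv-a and G/tv-a stem cells. As in H60b, the G/tv-a stem cells were at the level of the tumour cultures. Its rise of 0.97 (adjusted p = 0.0212) was 1.42 without the G/tv-a culture and 0.07 against it alone (adjusted p = 0.768).

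Further genes of this class were Lgi2, a secreted synaptic protein (1 above the other groups), Stmn4, a microtubule regulator (0.87), the heparan sulphate proteoglycan Gpc3 (1.07) and the small Cajal body RNA Scarna13 (1.31). Lgi2 kept its call whichever array was left out. Stmn4 lost it without mGC1_GFAP replicate 1 (adjusted p = 0.0506), Scarna13 on leaving out any single mGC1_GFAP array (adjusted p = 0.0795, 0.0579 and 0.0863) and Gpc3 without 7 of the 9 arrays (0.97 to 1.22). The rise of Scarna13 from NSC, 1.08 (adjusted p = 0.0401), was 0.24 against the G/tv-a culture alone (adjusted p = 0.763). Fat3, a giant protocadherin, was in this class with 9 of its 15 probe sets, and Chd7, a chromatin remodeller, with 10 of 30, both named after their values were seen. The strongest Fat3 probe set was 0.76 above the other tumour groups (adjusted p = 0.0213), and the strongest of Chd7 0.57 (adjusted p = 0.00498).

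Genes that fell further in mGC1_GFAP were led by Npl and Gpx8. Npl, the lyase that breaks down sialic acid, read 7.58, 7.39 and 8.1 against 11.78, 11.45 and 11.17 in NSC, and between 9.26 and 10.33 in the other tumour cultures. It fell by 3.78 ± 0.23 (adjusted p = 3.27e-07), against 2.02 in mGC2_NES and 1.6 in mGC3_CNP. Gpx8, a peroxidase of the endoplasmic reticulum, fell by 2.95 to 7.66, 8.32 and 8.75, against falls by 0.78 and 1.19. In both genes every mGC1_GFAP array lay below every other array, with differences from the other tumour groups of -1.96 (Npl, adjusted p = 0.00354) and -1.97 (Gpx8, adjusted p = 0.00473). Srebf1, the factor that drives fatty acid synthesis genes, read 10.19, 8.82 and 9.65, against 11.36, 11.08 and 11.37 in NSC and between 10.83 and 11.34 in the other tumours. Its fall by 1.72 stood against differences of -0.25 and -0.11 that did not pass, and its departure of -1.54 (adjusted p = 0.016) was lost without mGC1_GFAP replicate 3 (-1.59, adjusted p = 0.0596). The Wnt receptor Fzd8 fell by 0.75, 0.63 below the other groups (adjusted p = 0.0123, or 0.0563 without mGC1_GFAP replicate 1). The co-chaperone Dnajb4 fell by 0.39, a departure of -0.33 (adjusted p = 0.0253) lost on leaving out any single mGC1_GFAP array (adjusted p = 0.107, 0.0715 and 0.0699). Another co-chaperone, Dnaja1, was 0.28 higher than in the other tumours (adjusted p = 0.0349), lost without 7 of the 9 arrays. Uckl1, a uridine kinase-like protein, fell by 1.08 (-1.04 and adjusted p = 0.127 against the G/tv-a NSC culture alone), a departure of -1.52 (adjusted p = 0.0167, and 0.0501 without mGC1_GFAP replicate 2). The potassium channel Kcnj16 fell by 1.74 (departure -1.35, adjusted p = 0.0441, lost without 7 of the 9 arrays).

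The 17 opposite probe sets belonged to 16 genes, and in all 17 the group called the other way was mGC2_NES. Tgfb2, a secreted TGF-beta ligand, fell in mGC1_GFAP by 0.89 to 9.17, 8.63 and 8.75, from 9.94, 9.82 and 9.46 in NSC, and rose by 1.28 in mGC2_NES to 11.07, 11.08 and 10.9. In mGC3_CNP it read 9.65, 10.21 and 9.78, so mGC1_GFAP was the lowest group on every array. The difference from the other tumours was -1.6 ± 0.15 (adjusted p = 0.00257). Kdm5b, a demethylase of histone H3 lysine 4, fell by 0.47 and rose by 0.51 in mGC2_NES, and Gas1, a co-receptor of hedgehog, fell by 0.3 and rose by 0.32. Asah1 (acid ceramidase) and Npc2 (lysosomal cholesterol transfer) fell by 0.45 and 0.34 and rose in mGC2_NES by 0.41 and 0.29. Scarb2, a lysosomal membrane protein named after its values were seen, fell by 0.29 and rose by 0.25. Several of these calls against NSC depended on which control arrays were used. Against the G/tv-a culture alone Tgfb2 (-0.61, adjusted p = 0.122) and Kdm5b (-0.39, adjusted p = 0.203) did not pass in mGC1_GFAP. Without that culture Asah1 (-0.47, limma, adjusted p = 0.0515), Npc2 (-0.27, adjusted p = 0.0557) and Gas1 (-0.28, adjusted p = 0.104) did not pass in mGC1_GFAP. Gas1 also did not pass against it alone (-0.34). The opposite class rests on the mGC2_NES calls as well. Without the G/tv-a culture the rise of Asah1 in mGC2_NES did not pass (0.39, adjusted p = 0.0894), while those of Tgfb2, Kdm5b, Npc2 and Gas1 did. Against that culture alone the mGC2_NES change was 0.15 for Npc2 and 0.28 for Gas1.

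In the other direction, Zfp605, a zinc finger gene, read 8.97, 8.96 and 8.9 in mGC1_GFAP, 7.12, 6.62 and 6.67 in mGC2_NES and 7.87, 6.81 and 8.79 in the C/tv-a, N/tv-a and G/tv-a NSC cultures. It rose by 1.12 (adjusted p = 0.0378) and fell by 1.02 in mGC2_NES (adjusted p = 0.0482), and the NSC cultures differed among themselves by more than either change. Its rise was 1.6 without the G/tv-a culture and 0.15 against it alone (adjusted p = 0.692), and its difference in mGC2_NES was -0.54 without that culture (adjusted p = 0.15). Parpbp, which restrains homologous recombination, rose by 0.66 and fell by 0.48 in mGC2_NES. Slfn9 rose by 0.39 against a fall by 0.76, Add2 (beta-adducin) by 0.47 against 0.64, and Thsd7a by 0.43 against 0.4. Against the G/tv-a culture alone the rises of Parpbp, Slfn9, Add2 and Thsd7a did not pass (0.54, 0.36, 0.4 and 0.56). Those of Slfn9 and Thsd7a did not pass without it either (limma, adjusted p = 0.0827 and 0.067). In mGC2_NES the fall of Parpbp did not pass without that culture (-0.42, adjusted p = 0.104), while those of Slfn9, Add2 and Thsd7a did. Against it alone the mGC2_NES change of Thsd7a was -0.27. The count of opposite probe sets rested on single arrays: it was 2 without the C/tv-a NSC culture, 10 without the N/tv-a or the G/tv-a culture, 7, 31 and 8 without mGC1_GFAP replicates 1, 2 and 3, and 6 without mGC2_NES replicate 3. The departures from the other tumours of Slfn9 (adjusted p = 0.0586 and 0.0531), Parpbp (0.0762 and 0.0736), Gas1 (0.0893 and 0.0884) and Add2 (0.0812 and 0.059) were lost without mGC1_GFAP replicate 1 and without replicate 3, and that of Add2 also without replicate 2 (0.0501).

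Several of these genes already differed between the stem cell cultures. Of the 708 sorted and unsorted probe sets, 439 (62%) lay on the same side in the G/tv-a NSC culture relative to the C/tv-a and N/tv-a cultures, beside 53.1% of all probe sets, and 11 (1.55%) did so by at least 2-fold, H60b, Raet1d, Fut10, Lgr5, Scarna13 and Zfp605 among them. Another 3 (0.424%) lay at least 2-fold to the other side. Over all probe sets, 87 (0.399%) lay at least 2-fold to the same side and 151 (0.693%) to either side. Prm1, a protamine gene of spermatids named after its values were seen, stood furthest apart: it read 13.49 in the G/tv-a NSC culture and 7.15 and 7.21 in the C/tv-a and N/tv-a cultures. In mGC1_GFAP it read 7.77, 7.66 and 7.75, against 7.06 to 7.33 in the other tumour cultures, a difference of 0.55 (limma, adjusted p = 0.00552). With a single G/tv-a NSC culture, its own spread is unknown. Counts against NSC without it were 2843 higher and 2999 lower, and against it alone 1678 and 1943.

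Departures were found on all chromosomes, and their directions were unequal on several. On chromosome 11 the median difference from NSC, over the 1055 probe sets with a mean above 7.42, was 0.12 and 0.13 in mGC1_GFAP replicates 1 and 3 and -0.05 in replicate 2, and lay between -0.07 and -0.03 in the 6 other tumour cultures. Of 1670 probe sets tested on this chromosome 37 were higher and 9 lower than in the other tumour groups without overlap of the arrays (2.75%, against 3.25% of all). The higher direction also held the larger count on chromosome 15 (29 and 10), 17 (26 and 10), 6 (21 and 10) and 4 (31 and 15), and the lower direction on chromosome 2 (51 against 25). Chromosome 14 held 7 of 746 (0.938%). Slfn9 and Birc5 lie on chromosome 11 and were higher than in the other tumours in all 3 mGC1_GFAP cultures, with replicate 2 the lowest of them. Srebf1 (-1.54) and Kcnj16 (-1.35), on the same chromosome, were lower than in the other tumours. The part of the chromosome in these differences was not tested. Replicate 1 also stood apart on chromosome 6 (0.18, against 0.03 and 0.01) and chromosome 17 (0.14, against -0.01 and -0.01). On chromosome 15 all 3 mGC1_GFAP cultures lay at 0.27 to 0.3, next to the 0.18 to 0.28 of the other tumour cultures.

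**Figure D5:**
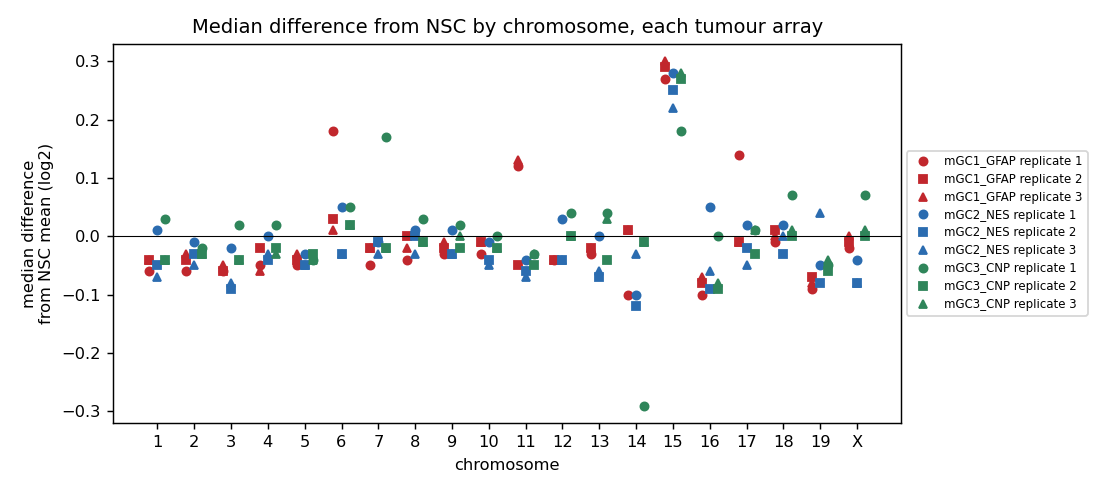
Median log2 difference from the NSC mean by chromosome for each of the 9 tumour arrays (red, mGC1_GFAP; blue, mGC2_NES; green, mGC3_CNP; marker shape, replicate). Chromosome 15 was raised in all 9, and chromosome 11 in mGC1_GFAP replicates 1 and 3.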

How the data were processed

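RNA of 12 cultures was measured on Affymetrix whole-transcript arrays. The deposited table holds log2 expression values made by the authors with Affymetrix Expression Console and RMA, per the submitters' processing notes; the sources used here give no versions, summarization level or genome build. RMA subtracts background, equalizes the arrays and compresses differences near background.

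No value was renormalized. Of 28270 probe sets, 23397 are listed in the platform annotation, an annotation of 2016, and 21780 with exactly 1 symbol were tested; 1617 named several genes, and 21689 gene identifiers matched RefSeq. Changes from NSC were fitted with limma 3.58.1 in R 4.3.3 (lmFit, eBayes) on all 12 arrays, and the difference between mGC1_GFAP and the mean of the other tumour groups on the 9 tumour arrays. Tests are two-sided, Benjamini-Hochberg adjusted over all 21780 and called under 0.05. The procedure was tested on simulated data. No pair of arrays was identical. The 3 arrays per group limit the precision.

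A departing probe set is more where the called change of mGC1_GFAP exceeds both others, and opposite where mGC1_GFAP and another group are called in opposite directions. It is less where both others moved one way with at least 1 called, and mGC1_GFAP moved that way by less. The less class also takes probe sets where mGC1_GFAP moved to the other side of NSC without being called. A gene counts once, by its smallest p. Genes named are the 8 with the largest rise and fall against NSC, the 5 per class and direction with the largest difference, up to 4 called members per list with all sorted members, and 7 genes of the design. The cultures, lists and rules were chosen with earlier results of these data known. Replicate numbers did not meet the rule for pairs, since not every same-numbered pair with mGC1_GFAP correlated above 0.1. Alternatives covered scaling, filtering, array weights, control arrays, the replicate block and each array left out.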

Additional observations from a re-analysis of the deposited data

Results flagged for a closer look

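The 57 genes below were drawn out because mGC1_GFAP differed from the mean of mGC2_NES and mGC3_CNP by limma over the 9 tumour arrays (adjusted p under 0.05), which tests the difference between the groups' changes from NSC. Values are that difference on the log2 scale. With mGC3_CNP alone on the other side, 44 of the 57 did not pass.

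Among genes whose change was opposite, Zfp605 (1.34), Slfn9 (0.84), Parpbp (0.83), Add2 (0.76) and Thsd7a (0.68) were higher, and Tgfb2 (-1.6), Kdm5b (-0.81), Asah1 (-0.55), Npc2 (-0.51) and Gas1 (-0.49) lower. Among those that went further were Lgr5 (1.39), Scarna13 (1.31), Fut10 (1.1), Gpc3 (1.07), Lgi2 (1), Grik1 (0.97) and Stmn4 (0.87), and in the other direction Gpx8 (-1.97), Npl (-1.96), Srebf1 (-1.54), Uckl1 (-1.52), Kcnj16 (-1.35), Fzd8 (-0.63), Tapbp (-0.43) and Dnajb4 (-0.33).

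The largest part were of the less class. Higher than in the other tumours were H60b (3.13), Tmem47 (2.37), Raet1d (1.92), Olfml3 (1.75), Fam135b (1.3), Lama1 (0.64), Lamc1 (0.61), Abcb1b (0.59), Birc5 (0.58) and Dnaja1 (0.28), with the replication genes Cdt1 (0.63), Gins1 (0.56), Mcm6 (0.53), Pola1 (0.51), Gins2 (0.5), Mcm4 (0.47), Mcm5 (0.45), Mcm7 (0.37), Prim1 (0.35), Tyms (0.35) and Cdc45 (0.27). Lower were Gdpd3 (-3.61), Sfrp1 (-2.83), Tmem196 (-1.81), St3gal6 (-1.69), Lrp11 (-1.64), Chil1 (-1.43), Hey2 (-1.32), Itga9 (-0.89), Jag1 (-0.62), Erbb3 (-0.48) and Insig1 (-0.48).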

How the results depend on the processing

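No called result changed direction. Some changes of the sorted genes from NSC that were not called changed sign with the control arrays, an alternative chosen after seeing the data: H60b to -0.37 against the G/tv-a culture alone, and without it Raet1d to 0.61, Fam135b to -0.04, Lrp11 to -0.12, Lama1 to 0.12 and Prim1 to 0.03. Of the 53 sorted genes examined this way, 13 called changes from NSC were lost against the G/tv-a culture alone and 7 without it. With the G/tv-a NSC culture alone as control 1678 probe sets were higher and 1943 lower than NSC, and 3 replication genes were lower. Against the other tumours, array weights gave 648 higher; mGC2_NES alone gave 679 higher and 657 lower, and mGC3_CNP alone 60 and 46, with 0 replication genes called by limma (11 at an unadjusted p under 0.05). With each array left out in turn, the counts were 2521 to 2843 higher and 2725 to 2999 lower than NSC, 63 to 426 higher and 64 to 426 lower than the other tumours, 48 to 235 more, 51 to 464 less, 2 to 31 opposite, 4 to 5 replication genes lower than NSC and 0 to 14 higher than in the other tumours. Of 126 genes named against NSC, 28 lost their call in some alternative, 26 of them with the G/tv-a culture alone, and Cdkn2a passed with the 6 arrays alone (adjusted p = 0.0414). Of 57 named against the other tumours, 45 lost it in some alternative: 44 with mGC3_CNP alone, 35 without mGC1_GFAP replicate 1 and 31 without replicate 3. Fitting all 12 arrays ended the calls of Raet1d (adjusted p = 0.0528) and Hey2 (0.0623), and the intensity trend that of Cdc45 (0.0538). These causes were not tested.

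The tumour groups share replicate numbers 1 to 3. Deviations of same-numbered arrays correlated at 0 to 0.25, and not every array correlated best with its own number, so the numbers are not taken as pairs. The replicate block gave 459 higher and 433 lower and 13 replication genes, and ended 6 of the 57 calls (Erbb3, Itga9, Mcm7, Cdc45, Tyms and Abcb1b; adjusted p between 0.0517 and 0.0671). Where a mean lies at or below 7.42, signal is not above the spermatid readings and the fold is a bound.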

Other observations

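Other gene groups of mGC1_GFAP had values not described above. Among all genes, 2814 of 19934 rose and 3124 fell against NSC (13.9% and 15.3% of probe sets). Of 23 measured Hox genes, which pattern the posterior body axis, 5 rose and the other 18 did not pass, and 17 of the 23 were at or below 7.42 on all arrays. In mGC2_NES 5 rose (16.6% of probe sets) and in mGC3_CNP 4 (14.9%). Of 26 genes of ERK feedback and immediate early response 12 rose and 5 fell, and of 22 hypoxia and glycolysis genes 7 fell and the other 15 did not pass. In the Notch pathway 3 rose and 9 fell of 15, and among Wnt ligands, receptors and antagonists 5 rose and 12 fell of 27. Interferon response genes rose in 3 and fell in 6 of 21, a share of rises near that of all genes. Between mGC1_GFAP and the other tumours the Wnt list held 1 higher and 4 lower genes, beside 1.85% and 1.94% of all probe sets.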
